A study of Homo sapiens with 4 samples.

Results

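S100 proteins are small calcium-binding proteins with a pair of EF-hand motifs, and most of them work as dimers that change shape when calcium binds and then grip a partner protein. Their partners inside the cell include annexins and cytoskeletal proteins such as nonmuscle myosin, and some S100 proteins also leave the cell and bind receptors such as AGER (RAGE). Most human S100 genes lie in a cluster on chromosome 1, close to the genes of the epidermal differentiation complex, and several of them are altered in colorectal and other carcinomas.

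The expression of 10 S100 genes was compared between the HCT116 derived vector control (vec) and the PKP3 knockdown clone (shpkp3-2). The genes were S100A2, S100A3, S100A4, S100A6, S100A10, S100A11, S100A13, S100A14, S100A16 and S100P, taken by the gene name that the array files give to each probe. They are 10 of 30986 names on the array and were read by 11 of 50117 probes, as S100A11 has 2 probes and each other gene has 1. HCT116 is an established cell line of colorectal carcinoma. PKP3 (plakophilin3) is a desmosomal plaque protein, and shpkp3-2 is 1 clone that carries a plasmid for a short hairpin RNA against it, while vec carries the vector. Both were kept under selection, for which the sample labels name puromycin at 5 μg/ml and the methods name blasticidin. Each clone was hybridized to 2 single color arrays, with the RNA taken in 2 rounds that each included vec and shpkp3-2. The labels call these biological replicates, so that the p-values below measure the spread between collections of 1 clone and not between independent knockdown clones.

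The summed signal intensity per array was 116389353 to 130032824 in vec against 115635392 to 118891536 in shpkp3-2, and the share of spots well above background was 60.5% to 63.5%. Each of the 11 probes of the 10 S100 genes passed the background limit on every array, and none was saturated. PKP3 itself had signal intensities of 20850 and 22840 in vec against 3414 and 3078 in shpkp3-2. The knockdown left 17.2% of the vec level (log2 fold change -2.54, SE 0.23, adjusted p 0.0188 in limma). Of 7 simple epithelium markers with a probe, 6 were well above background on all 4 arrays (CDH1, CDX2, KRT8, KRT18, KRT19 and KRT20) and 0 passed the test. Stratified epithelium markers were mixed, with DSC3, KRT10 and KRT14 on all 4 arrays and DSG3, KRT1 and KRT5 on none. The summed level of the 7 simple epithelium markers was 1041 and 1177 times the 75th percentile of the array in vec against 1318 and 1356 times in shpkp3-2, and that of the 7 stratified ones 64.5 and 68.8 against 79.1 and 74.9 times. Both sums lay higher on the shpkp3-2 arrays, but a sum over probes of unlike brightness is set by the brightest. The stratified sum was nearly all KRT10 (log2 fold change 0.21, adjusted p 0.652 in limma). The simple one was nearly all KRT8, KRT18 and KRT19 (0.33, 0.04 and 0.39, adjusted p 0.532, 0.946 and 0.436 in limma). The clones overlapped for KRT18 and KRT14, so that the sums do not show a rise of either class. The part of these markers in the S100 values was not tested. The arrays hold no other tissue, so that whether these S100 genes are particular to simple epithelium cannot be read from them.

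Below, an intensity is the processed signal on a linear scale, and a log2 value is its log2 after subtraction of the 75th percentile of the array. A log2 fold change is the mean of shpkp3-2 minus the mean of vec, with 2 arrays in each. Levels of different probes are not compared, as each probe has its own brightness.

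The promoters of 4 genes are shown first, as these genes gave the largest differences in each direction, and S100A16 and S100A14 are neighbours. They are RefSeq promoter windows of GRCh38.p14, from 250 bases before to 50 bases after an annotated start, written 5′ to 3′ along the gene. Capitals mark matches on either strand to 5 short motifs. The TATA box was searched as TATAAA and the GC box as GGGCGG. The AP-1 site was searched as TGANTCA, a common E-box as CAGGTG, and the grainyhead site as AACNGGTT, where N is any base. S100A16 has 2 annotated starts, and the files do not tie its probe to either.
S100A16, chr1:153613088-153613387, minus strand: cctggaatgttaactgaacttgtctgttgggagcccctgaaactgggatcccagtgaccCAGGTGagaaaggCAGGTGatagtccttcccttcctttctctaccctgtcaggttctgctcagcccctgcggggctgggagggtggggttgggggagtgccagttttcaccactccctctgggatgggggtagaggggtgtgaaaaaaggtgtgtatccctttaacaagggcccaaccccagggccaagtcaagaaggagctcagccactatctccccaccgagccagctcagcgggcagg
S100A16, chr1:153609306-153609605, minus strand: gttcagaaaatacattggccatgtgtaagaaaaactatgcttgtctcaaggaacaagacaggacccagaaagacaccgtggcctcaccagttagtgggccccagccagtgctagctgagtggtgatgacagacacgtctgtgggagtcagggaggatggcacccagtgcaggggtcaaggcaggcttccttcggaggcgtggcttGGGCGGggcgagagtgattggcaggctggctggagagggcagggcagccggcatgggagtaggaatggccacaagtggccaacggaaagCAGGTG
S100A14, chr1:153616276-153616575, minus strand: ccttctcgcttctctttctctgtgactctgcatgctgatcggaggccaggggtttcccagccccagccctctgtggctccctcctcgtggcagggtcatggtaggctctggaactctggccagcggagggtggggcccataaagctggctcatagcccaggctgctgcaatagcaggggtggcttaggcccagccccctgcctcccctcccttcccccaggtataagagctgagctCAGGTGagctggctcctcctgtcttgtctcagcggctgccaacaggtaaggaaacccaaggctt
S100A4, chr1:153545757-153546056, minus strand: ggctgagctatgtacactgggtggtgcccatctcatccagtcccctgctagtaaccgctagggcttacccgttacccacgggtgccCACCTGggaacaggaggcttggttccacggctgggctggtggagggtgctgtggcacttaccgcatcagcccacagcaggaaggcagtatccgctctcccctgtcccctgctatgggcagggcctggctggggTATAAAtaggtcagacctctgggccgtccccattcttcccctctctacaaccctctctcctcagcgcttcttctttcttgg
S100A10, chr1:151993810-151994109, minus strand: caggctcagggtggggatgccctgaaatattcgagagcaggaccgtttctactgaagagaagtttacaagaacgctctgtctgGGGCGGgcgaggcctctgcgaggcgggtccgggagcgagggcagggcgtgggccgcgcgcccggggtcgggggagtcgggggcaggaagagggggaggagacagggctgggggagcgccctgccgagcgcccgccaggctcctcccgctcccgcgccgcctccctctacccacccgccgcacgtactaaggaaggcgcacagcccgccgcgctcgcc
The first S100A16 window holds 2 E-box matches and none of the other motifs, and the second holds a GC box and an E-box match at its 3′ end. The S100A14 window holds 1 E-box match, that of S100A4 a TATA box and an E-box match, and that of S100A10 a GC box. All 10 genes had an entry, with 14 windows in all. Of these 14 windows, 6 held the E-box, which 20.6% of 35116 promoters of the same length hold. The GC box was in 6 (45% of all promoters), the TATA box in 3 (11.5%), AP-1 in 2 (7.71%) and grainyhead in 0 (1.73%). These are matches of letters in a window, and no binding was measured here.

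With the test across all 30512 probes whose signal was well above background in either clone (on both of its arrays), 0 of the 11 S100 probes passed an adjusted p of 0.05 in limma in either direction. The background was 0.249% of all probes tested higher in shpkp3-2 and 0.147% lower. At an unadjusted p of 0.05, 2 of the 11 probes were higher (S100A13 and S100A14) and 3 were lower (S100A16, S100A4 and S100A10), where all probes gave 7.35% and 4.98%. The 2 arrays of one clone lay entirely above or below those of the other for 9 of the 11 probes, 4 higher and 5 lower, where 45.2% of all probes did so, 27.2% higher and 18% lower. A difference of 2-fold from the vec mean, 1 on the log2 scale, on both shpkp3-2 arrays was met by S100A16 alone among the 11, lower, which 0.623% of all probes met in that direction and 1.12% in the other. The median log2 fold change of the 11 probes was 0.07, beside 0.05 over all probes. The median size without the sign was 0.42 for the S100 probes and 0.22 over all probes. With 1 probe per gene, 5 of the 10 genes lay above 0 and 5 below, where 11818 of all 20259 genes tested lay above 0. The median became -0.11. It was also below 0 under quantile normalization (-0.14) and without vec replicate 2 (-0.18), so that the direction of the median is not settled. With 2 arrays against 2, an exact permutation test (two-sided) can give no p below 0.333 for a single gene.

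**Figure D1:**
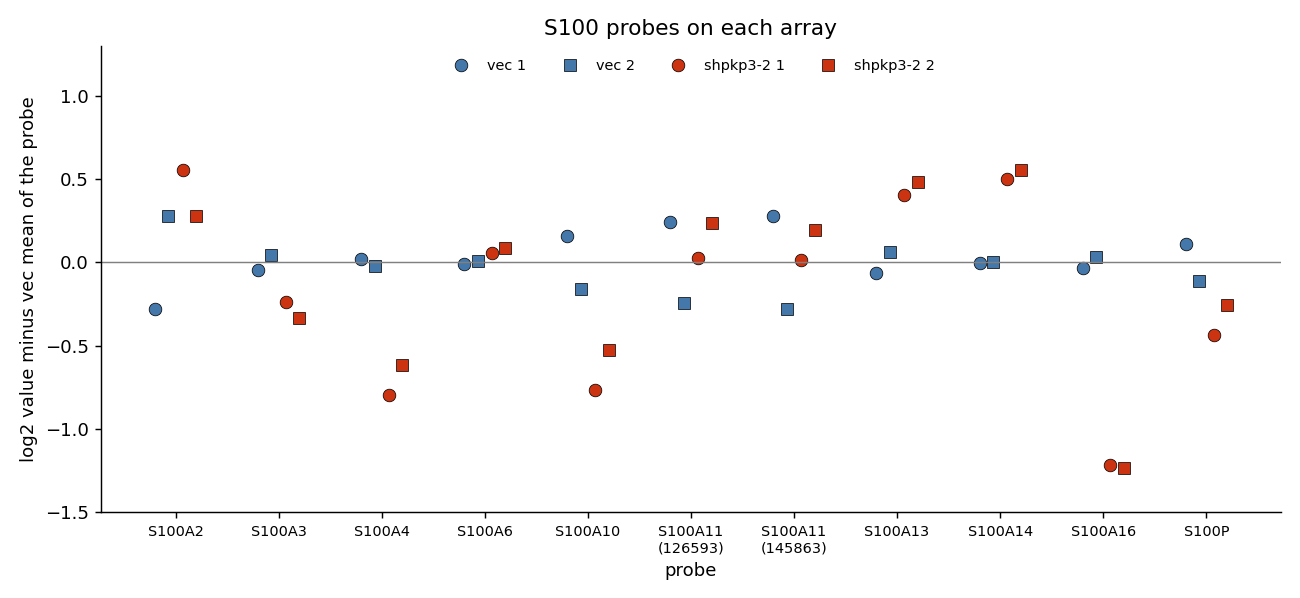
Log2 value of each S100 probe (horizontal axis) on each of the 4 arrays, minus the mean of the 2 vec arrays for that probe (vertical axis), with vec in blue, shpkp3-2 in red, circles for the first and squares for the second RNA collection. S100A16, S100A4 and S100A10 lie lower on both shpkp3-2 arrays, S100A13 and S100A14 higher, and the arrays of the clones mix for both S100A11 probes.

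S100A16 gave the largest difference among the 10 genes. It is a widely expressed S100 protein in which only one of the EF-hands is a good calcium site. Its intensities were 7379 and 5886 in vec against 2461 and 2408 in shpkp3-2. Both shpkp3-2 arrays lay far below both vec arrays, and the arrays of a clone lay close together. The log2 values were 3.92 ± 0.04 in vec against 2.69 ± 0.01 in shpkp3-2 (SD, n = 2 each), which is 42.8% of vec. The log2 fold change was -1.23 (SE 0.17, 95% interval -1.64 to -0.81), with an adjusted p of 0.0720 in limma, which misses the threshold. By RNA collection it was -1.19 and -1.26. When the collection was entered as a replicate block, the adjusted p in limma was 0.00768 and S100A16 passed the test, as 1 of 11 S100 probes, where 1.11% of all probes were then called lower and 1.66% higher. With the pairing crossed, it was 0.0885 in limma and S100A16 did not pass. With normexp background correction it passed too, at a log2 fold change of -1.19 and an adjusted p of 0.0119 in limma, as it did with a trended and robust prior (0.0173). Over the 15 settings its log2 fold change stayed between -1.30 and -1.19 while the adjusted p ran from 0.00768 to 0.301, and 3 settings called it.

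S100A14, the next gene in the cluster, differed in the opposite direction. It is an S100 protein of epithelial cells with altered calcium sites, and a ligand of AGER. The intensities were 20056 and 15340 in vec against 21543 and 22114 in shpkp3-2. After scaling, the vec arrays were at 5.33 and 5.33 and the shpkp3-2 arrays at 5.83 and 5.88, so that the clones did not overlap. This is a log2 fold change of 0.53 (SE 0.17, 95% interval 0.11 to 0.95), or 1.44-fold, with an adjusted p of 0.320 in limma, which does not pass. The difference was 0.50 in the first collection and 0.55 in the second. Within each array, the log2 value of S100A16 minus that of S100A14 is not altered by subtracting a constant from an array. It was -1.44 and -1.38 on the vec arrays against -3.13 and -3.20 on the shpkp3-2 arrays. The ratio of the signals of these neighbours thus shifted by -1.75 on the log2 scale (-1.69 and -1.82 by collection), and the arrays of the clones did not overlap (exact permutation p = 0.333, two-sided, the smallest the design allows). The pair was chosen with these values known. As neither gene overlapped between the clones and their directions were opposite, the lack of overlap and the p-value of the pair were fixed by the choice. S100A4 minus S100A6 and S100A10 minus the brighter S100A11 probe shifted by -0.78 and -0.75, also without overlap.

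S100A4 binds nonmuscle myosin IIA and is known for its link to metastasis. Its probe read 48082 and 35767 in vec against 20797 and 23253 in shpkp3-2. Each shpkp3-2 array was below each vec array. On the log2 scale the vec arrays were at 6.59 and 6.55 and the shpkp3-2 arrays at 5.78 and 5.96, a fold change of -0.70 (SE 0.18, 95% interval -1.14 to -0.27) at 61.4% of vec. The adjusted p was 0.234 in limma and no setting called it, with a range of 0.0946 to 0.918. The collections gave -0.81 and -0.59. Vimentin (VIM), a mesenchymal marker as S100A4 is in some tissues, lay lower on the same arrays, with log2 values of -1.74 and -2.28 in vec against -3.29 and -3.20 in shpkp3-2 (log2 fold change -1.24, adjusted p 0.143 in limma). FN1 was at -0.33 with overlapping clones and COL1A1 at 0.02 (adjusted p 0.765 and 0.985 in limma). Of the 6 mesenchyme markers, COL1A1, FN1 and VIM were well above background on all 4 arrays, CDH2, COL1A2 and PDGFRB on none, and 0 passed the test. Their summed level was 0.734 to 1.18 times the 75th percentile of the array in vec and 0.630 to 0.821 times in shpkp3-2, so that the clones overlapped. Both clones are of 1 carcinoma cell line, and any link between these markers and the S100A4 values was not tested.

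S100A10 (p11) has lost calcium binding and is held in its active form, in which it joins annexin A2 and presents plasminogen at the cell surface. Its intensities were 23469 and 14413 in vec against 9418 and 10981 in shpkp3-2. The log2 values were 5.56 and 5.24 in vec against 4.64 and 4.88 in shpkp3-2, with no overlap but with more spread within a clone than S100A16 had. The log2 fold change was -0.64 (SE 0.21, 95% interval -1.15 to -0.14), 64.0% of vec, with an adjusted p of 0.315 in limma. It was -0.92 in the first collection and -0.37 in the second. Its partner ANXA2 has 3 probes, which gave log2 fold changes of 0.23, 0.24 and 0.51 (adjusted p 0.613, 0.620 and 0.337 in limma), so that S100A10 and ANXA2 lay on opposite sides of 0 and neither passed the test.

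S100A13 takes part in the release of FGF1 and IL1A, which lack a signal peptide. Its intensities of 34833 and 29144 in vec against 36721 and 38235 in shpkp3-2 became log2 values of 6.13 and 6.26 against 6.60 and 6.67. The shpkp3-2 arrays were the higher ones by 0.45 (SE 0.18, 95% interval 0.02 to 0.88), or 1.36-fold, with an adjusted p of 0.394 in limma. The collections agreed closely, at 0.47 and 0.42. In RefSeq, S100A13 overlaps S100A1 on the other strand, and the S100A1 probe was at background level in both clones.

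S100A2, known from basal epithelial cells, was less even. The vec arrays were at intensities of 17494 and 19667 and the shpkp3-2 arrays at 23724 and 19334. The log2 values of 5.13 and 5.69 in vec against 5.97 and 5.69 in shpkp3-2 put the difference in the first collection, with 0.84 there and 0.00 in the second. The log2 fold change was 0.42 (SE 0.25, 95% interval -0.19 to 1.03, adjusted p 0.546 in limma), and it ran from 0.14 to 0.70 when the settings were changed.

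S100A3 and S100P lay lower on both shpkp3-2 arrays without passing the test. S100A3 is best known from the hair cuticle, and its intensities were 481 and 391 in vec against 319 and 296 in shpkp3-2. The differences by collection were -0.19 and -0.38, with a log2 fold change of -0.29 (SE 0.17, 95% interval -0.71 to 0.14, adjusted p 0.557 in limma). S100P, a secreted AGER ligand of gut and pancreatic tumors that also binds ezrin, is the only one of the 10 genes outside chromosome 1, on chromosome 4. It was at 290 and 190 in vec against 151 and 169 in shpkp3-2. On the log2 scale this was -0.78 and -1.01 against -1.33 and -1.15, a fold change of -0.35 (SE 0.19, 95% interval -0.81 to 0.12, adjusted p 0.522 in limma). Neither gene overlapped between the clones, and neither interval left out 0.

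S100A6 and S100A11 gave the smallest differences. S100A6 (calcyclin), a partner of CACYBP, was at 223019 and 172148 in vec against 177309 and 178898 in shpkp3-2. Its log2 values spanned only 8.80 to 8.90 over the 4 arrays, and the fold change was 0.07 (SE 0.17, 95% interval -0.34 to 0.49, adjusted p 0.887 in limma), which turned to -0.14 under quantile normalization. S100A11, which pairs with annexin A1, has probes GT_44k_23_P126593 and GT_44k_23_P145863. The first read 2699 and 1470 in vec against 1764 and 2015 in shpkp3-2, and the second 4537 and 2349 in vec against 2865 and 3204 in shpkp3-2. In both, vec replicate 1 was the highest array and vec replicate 2 the lowest, with the shpkp3-2 arrays between them. The log2 fold changes were 0.13 (SE 0.23) and 0.10 (SE 0.24), with adjusted p of 0.844 and 0.887 in limma, and without vec replicate 2 they turned to -0.11 and -0.18. The probes share no run of bases longer than 6, and they gave the same order of the arrays.

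**Figure D2:**
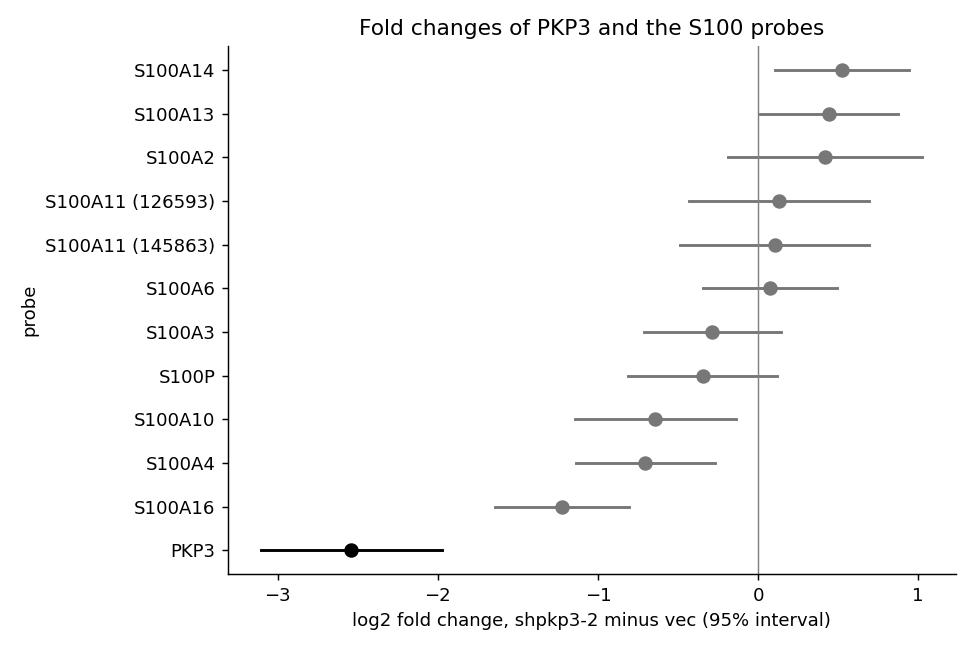
Log2 fold change of shpkp3-2 minus vec (horizontal axis) for PKP3 and the 11 S100 probes (vertical axis), with points for the limma estimate and bars for its 95% interval, black where the adjusted p passed 0.05. PKP3 at -2.54 passed, S100A16 at -1.23 was next in size, and the intervals of S100A2, S100A3, S100A6, S100P and both S100A11 probes include 0.

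The order of the 10 genes by log2 fold change thus ran from S100A16 through S100A4, S100A10, S100P, S100A3, S100A6, S100A11, S100A2 and S100A13 to S100A14. The interval of S100A16 overlaps those of its neighbours S100A4 and S100A10 in that order, and the intervals of S100P, S100A3, S100A6, S100A11 and S100A2 overlap one another. The 60-base probes of the S100 genes share at most 15 bases in a row with the probe of any other gene on the array.

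Directions were mixed along the cluster on chromosome 1. In RefSeq order, from S100A6 (log2 fold change 0.07), the tested genes ran over S100A5 (-1.42), S100A4 (-0.70), S100A3 (-0.29), S100A2 (0.42), S100A16 (-1.23), S100A14 (0.53) and S100A13 (0.45). Of the 10 genes, 9 are on this chromosome, and S100A10 and S100A11 sit next to each other, 47 protein-coding genes away from the near end of the cluster at S100A9.

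The other S100 genes were mostly not measurable. Of 11 such genes on the array, the probes of S100A1, S100A7A, S100A7L2, S100A8, S100A9, S100A12, S100B, S100G and S100Z were not well above background on any array. S100A7 (psoriasin) was well above background on 3 arrays with a log2 fold change of -0.15 (adjusted p 0.757 in limma). S100A5, which lies between S100A6 and S100A4, passed the test as the only one of the family. Its intensities were 209 and 167 in vec against 63.2 and 57.8 in shpkp3-2, well apart. The log2 fold change was -1.42 (SE 0.17, 95% interval -1.84 to -0.99, adjusted p 0.0495 in limma), which is 37.4% of vec. The call is at the edge of the threshold. It held in 7 of 15 settings with adjusted p from 0.00161 (with the replicate block) to 0.247, and with normexp background correction the log2 fold change was -0.85. The annotated spans of S100A5 and S100A4 overlap by 65 bases on the same strand in RefSeq, and whether the S100A5 probe also reads S100A4 transcripts was not tested.

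**Figure D3:**
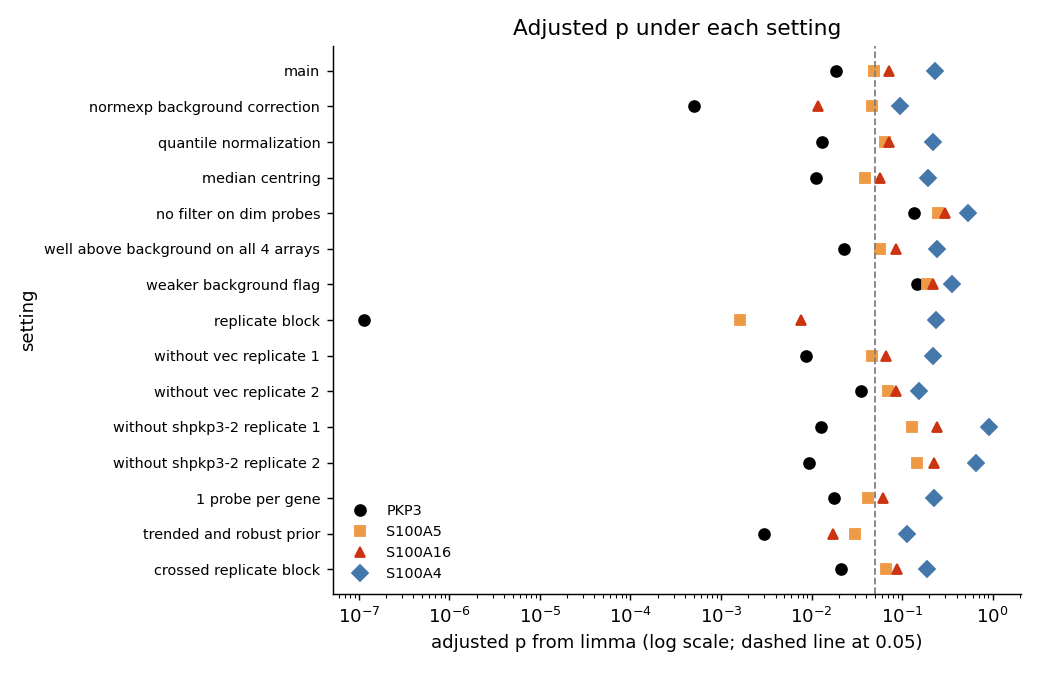
Adjusted p from limma (horizontal axis, log scale, dashed line at 0.05) for PKP3, S100A5, S100A16 and S100A4 under each of the 15 settings (vertical axis). PKP3 passes in all but 2 settings, S100A5 in 7, S100A16 in 3 and S100A4 in none.

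Annexins are calcium-dependent membrane-binding proteins and the best known partners of S100 proteins. Of 14 listed, 12 had a probe under that name and 11 were tested with 14 probes, of which 0 passed the test. Without adjustment, 4 of them were higher and 1 lower at a p of 0.05, where 7.35% and 4.98% of all probes were. The largest differences were -0.74 for ANXA3 (adjusted p 0.206 in limma), 0.73 for ANXA9 (0.237) and 0.64 for ANXA10 (0.319). ANXA1, the partner of S100A11, was at 0.56 (0.324). The median of the annexin probes was 0.20, with 10 probes above 0 and 4 below, where 17362 of all 30512 probes tested lay above 0.

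Of 26 other partners and receptors, 25 had a probe under that name and 23 were tested with 43 probes, of which 0 passed and at an unadjusted p of 0.05, 5 were higher and 0 lower, where 7.35% and 4.98% of all probes were. Their median was -0.03. The 5 higher probes include 1 of FGF1, which passed the filter through shpkp3-2 alone, and this favours values above 0. The others passed the background limit on every array. Among the largest differences by the brightest probe of a gene were 0.57 for PLAT (adjusted p 0.318 in limma), the tissue plasminogen activator that S100A10 also binds, and -0.39 for the phosphatase PPP5C (0.472). FGF1, the growth factor released with S100A13, was well above background on both shpkp3-2 arrays and on neither vec array, by 1 of 4 probes, and was at least 1.64-fold higher in shpkp3-2 (adjusted p 0.0556 in limma). This bound sets the mean of the shpkp3-2 arrays against the lowest signal well above background in vec. FGF1 passed the test with the replicate block, as did 1 of 5 probes of AHNAK, a large scaffold bound by S100A10 (log2 fold change 0.99, while the other probes lay at -0.65 to -0.05). Both probes entered the test through shpkp3-2 alone, and the arrays of the clones overlapped for that AHNAK probe. Both were dim, with shpkp3-2 intensities of 11.2 and 16.3 for FGF1 and 12.8 and 40.7 for AHNAK. The lowest intensity well above background was 8.41 to 9.74 per array. With the crossed block FGF1 passed and AHNAK did not. EGFR, the epidermal growth factor receptor, was at 0.36 and 0.95 in its 2 probes tested (adjusted p 0.667 and 0.142 in limma). The latter probe is annotated to another transcript. It was dim, at intensities of 19.4 and 13.2 in vec against 27.1 and 26.5 in shpkp3-2. Among the direct partners, MYH9, bound by S100A4, was at -0.35 and -0.32 (0.524 and 0.710), and CACYBP, bound by S100A6, ran from -0.06 to 0.12 in its 4 probes. AGER was at 0.16 (0.790), and TLR4, another receptor of secreted S100 proteins, was not detected by any of its 3 probes.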

How the data were processed

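Cy3 labeled total RNA from vec and shpkp3-2, both made from HCT116, was measured on 4 single color Agilent arrays, 2 per clone, grouped by the sample titles. The authors ran the Agilent Feature Extraction software, named as version 9.1 in the labels and 10.7.3.1 in the file headers, and deposited its spot intensities on a linear scale, which are background-subtracted and detrended but not scaled between arrays. The deposited 0 or 1 flags, another kind of value, gave detection and saturation. All 4 arrays were on 1 slide, where the position of an array and its clone cannot be told apart.

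Outlier spots (26 to 39 per array) were left out, the intensities of a probe's spots were averaged, and after log2 each array was scaled by its own 75th percentile, taken over 51538 spots with controls left out. A value on all 4 arrays was had for 50117 of 50238 probes. A test was made for the 30512 probes that either clone had well above background on both of its arrays. It used lmFit and eBayes of limma 3.58.1 (R 4.3.3) with no covariates, Benjamini-Hochberg adjustment and a threshold of 0.05. A run on simulated data held changes larger than any S100 difference here, so that it does not show how often changes of this size are called. Python 3.11.15, pandas 2.3.3, scipy 1.17.1 and matplotlib 3.10.9 were used for the rest. The number of arrays limits the precision.

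The design text pairs the first arrays and the second arrays of the clones by RNA collection, and this pairing was an alternative, as a replicate block. Deviations of same-numbered arrays from the clone mean had a correlation of -0.199. The other alternatives were normexp (offset 50), quantile normalization, median centring, other filters on dim probes, each array left out in turn, 1 probe per gene, and a trended and robust prior. A crossed pairing was added after seeing the data. With an array left out, the lone array of a clone is assumed to vary like those of the other.

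The S100 genes, the other gene lists and the marker lists were chosen with earlier results of these data known. The text names every S100 gene with each of its probes, PKP3, the genes of other lists that passed the test or else those with the largest differences, genes well above background in 1 clone alone, and for S100A16 the genes whose array pattern was nearest. Of the genes so named, 2 are not reported here. S100A7, MYH9, CACYBP, AGER, TLR4, EGFR, AHNAK, ANXA1, ANXA2, SPRR3, LOR and the marker genes were named outside this rule, with their values known. Promoters are from NCBI RefSeq (GRCh38.p14). Genome positions of probes are not given, since the array design used an older build.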

Additional observations from a re-analysis of the deposited data

How the results depend on the processing

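The number of calls moved with the settings. The 121 probes called over the array became 74 with quantile normalization, 18 with no filter on dim probes, 46 with probes well above background on all 4 arrays only, 2 with the weaker background flag and 262 to 313 with an array left out. With the replicate block, which pairs the RNA collections, 847 probes were called (508 higher and 339 lower). The crossed pairing gave 104 calls.

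The count of 0 called S100 probes became 1 with normexp, 1 with the replicate block and 1 with the trended and robust prior, S100A16 each time, and stayed at 0 with each array left out. For the other S100 genes the count of 1 (S100A5) became 0 with quantile normalization, no filter, probes on all 4 arrays, the weaker flag and the crossed block, and was 0 to 1 with an array left out (1 without vec replicate 1, 0 without vec replicate 2 or either shpkp3-2 array). The annexins kept a count of 0 in every setting. Partners and receptors went from 0 to 1 with median centring, 2 with the replicate block, 1 with the crossed block and 0 to 1 with an array left out, 1 being FGF1, without vec replicate 1 or shpkp3-2 replicate 1. The epidermal differentiation complex went from 1 to 0 with no filter, with probes on all 4 arrays, with the weaker flag and with 1 probe per gene, to 2 with the replicate block, and to 1 to 2 with an array left out (2 without vec replicate 1). PKP3 stayed at -2.54 but had an adjusted p in limma of 0.135 with no filter and 0.145 with the weaker flag. Its log2 fold change was -2.80 to -2.28 with an array left out.

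The direction reversed for S100A6 under quantile normalization (-0.14) and for both S100A11 probes without vec replicate 2 (-0.11 and -0.18, against 0.38 and 0.39 without vec replicate 1). All other S100 members kept their direction in the settings run. The replicate block changed no other call among the S100 members. The cause of these differences was not tested.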

Other observations

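The epidermal differentiation complex, which holds cornified envelope genes beside the S100 cluster, had few probes well above background. Of 24 genes listed, 20 had a probe under that name and 10 were tested with 11 probes. Of these 11 probes, 5 (CRNN, FLG2, LOR, SMCP and 1 of SPRR1A) passed the filter through shpkp3-2 alone, which favours values above 0. The other 6 passed the background limit on every array. Of these 6, 5 lay above 0, as did 17362 of all 30512 probes tested. At an unadjusted p of 0.05 in limma, 3 of them were higher, where 7.35% of all probes were. After adjustment 1 probe passed, and it is one of those that passed the filter through shpkp3-2 alone. It reads SPRR1A, a cornified envelope precursor, at intensities of 12.6 and 10.2 in vec and of 67.3 and 100.5 in shpkp3-2. The vec values are close to the background limit, and 1 of the 2 vec arrays was well above it. The log2 fold change was 3.07 (SE 0.24, adjusted p 0.0118 in limma), and 1.17 with normexp background correction. The other SPRR1A probe, the brighter one, was at 843 and 875 in vec and 736 and 842 in shpkp3-2, with a log2 fold change of 0.09 (adjusted p 0.899 in limma), so that the probes of this gene disagree. SPRR3 and LOR (loricrin), of the same envelope, were at 1.33 and 0.84 and did not pass. SPRR3 passed with the replicate block but not with the crossed block. FLG2 was well above background on the shpkp3-2 arrays alone, by 1 of its 2 probes, at intensities of 9.43 and 8.93 in vec against 11.4 and 9.24 in shpkp3-2 (adjusted p 0.531 in limma), close to the background limit in both.

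The pattern of S100A16 over the 4 arrays was most closely followed, among 28883 probes well above background on all of them, by ANTXR2, an anthrax toxin receptor (root mean square difference 0.036 on the log2 scale, log2 fold change -1.21), and SAMD5 (0.042 and -1.27). With 4 arrays, likeness of this kind is mostly likeness of the difference between the clones.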
